A study of Mus musculus with 9 samples.

Results

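The cornified envelope precursors are proteins that keratinocytes make as they leave the basal layer and turn into the dead, flattened cells of the skin surface. The set described here holds 10 genes, chosen by name: Flg, Flg2, Hrnr, Tchh, Lor, Ivl, Sprr1a, Sprr1b, Sprr2a3 and Prr9, matched by gene identifier to 10 of the 49671 gene rows of the count table. RNA was sequenced from 9 libraries of sorted mouse skin cells, 5 of the Flg genotype wt/wt and 4 of the genotype ko/ko, to learn how a lack of filaggrin alters keratinocyte gene expression. The cells were sorted as lacking CD45, the surface protein of leukocytes, and carrying CD49f, an integrin chain by which basal keratinocytes hold to the basement membrane. The labels call them epidermal cells and record no treatment. The sources used here do not give the nature of the Flg allele or the strain, age and sex of the mice. Each sample title carries its own identifier, but no label says that these are separate mice, so the p-values measure the spread between these samples, which may be technical.

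Profilaggrin, the product of Flg, is stored in granules, cut into filaggrin units that pack keratin filaments, and finally broken down into small molecules that hold water in the skin surface. Flg2 and Hrnr encode proteins of the same build, with a calcium-binding S100 part fused to long repeats, and Tchh encodes trichohyalin, the fused S100 protein of the inner root sheath and medulla of the hair. Lor (loricrin), Ivl (involucrin) and the small proline-rich proteins of the Sprr genes are joined by transglutaminases into the protein shell that replaces the cell membrane. All of them lie in the epidermal differentiation complex, a gene cluster whose members are switched on at different depths of the epidermis.

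The libraries held 15601859 to 23200440 counts, so that 1 count was worth 0.0431 to 0.0641 CPM, the count scaled to a fixed library total. Per gene, CPM below are scaled with TMM factors, which correct for differences in composition between libraries. Markers of fibroblasts outweighed those of keratinocytes in every library: the sum of 7 fibroblast genes was 26737 to 61720 CPM, against 1406 to 3019 CPM for 8 basal keratinocyte genes. The sum of 7 suprabasal genes was 156 to 260 CPM. The values are therefore those of a mixture, in which fewer cells of a type and less RNA per cell cannot be told apart. Gm10800, a predicted gene, was very uneven between the libraries. It reached 2188 CPM of the library total in wt/wt replicate 1, 3958 in ko/ko replicate 1 and 12663 in ko/ko replicate 4. It was at 269.6 in wt/wt replicate 2, 104 in ko/ko replicate 3 and 2.76 to 21.5 elsewhere. For the 6 genes that passed the filter on low counts, the log2 fold change is also given without the 3 richest libraries. It is not given so for the marker lists or the keratin scales. The library identifiers run in a separate series for each genotype, so a difference in handling and the genotype cannot be told apart.

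On the TPM scale, which corrects counts for exon length and so allows levels to be compared between genes, Sprr1a stood far above the other 9 genes. It averaged 121 ± 69.7 TPM (SD, n = 9 libraries), against 1651 ± 587 TPM for Krt14, the keratin of basal cells, and 49.5 ± 11.7 TPM for Krt10, a keratin of suprabasal cells. The lowest Sprr1a library, at 49.5 TPM, lay above the highest Sprr1b library, at 42.6 TPM. Sprr1b followed with 13.0 ± 11.97 TPM, then Prr9 with 5.48 ± 9.36 TPM, Ivl with 3.54 ± 2.03 TPM and Tchh with 2.85 ± 2.05 TPM. The order of these 4 was not firm: Sprr1b lay above Prr9 in 7 of 9 libraries, Prr9 above Ivl in 2 and Ivl above Tchh in 6, and their ranges overlapped. Sprr2a3 averaged 0.452 ± 0.352 TPM and Lor 0.296 ± 0.144 TPM, with Sprr2a3 the higher in 6 of 9 libraries. At the bottom, Flg2, Hrnr and Flg averaged 0.0463 ± 0.0839, 0.0202 ± 0.0380 and 0.0122 ± 0.0133 TPM and did not differ beyond their spread.

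**Figure D1:**
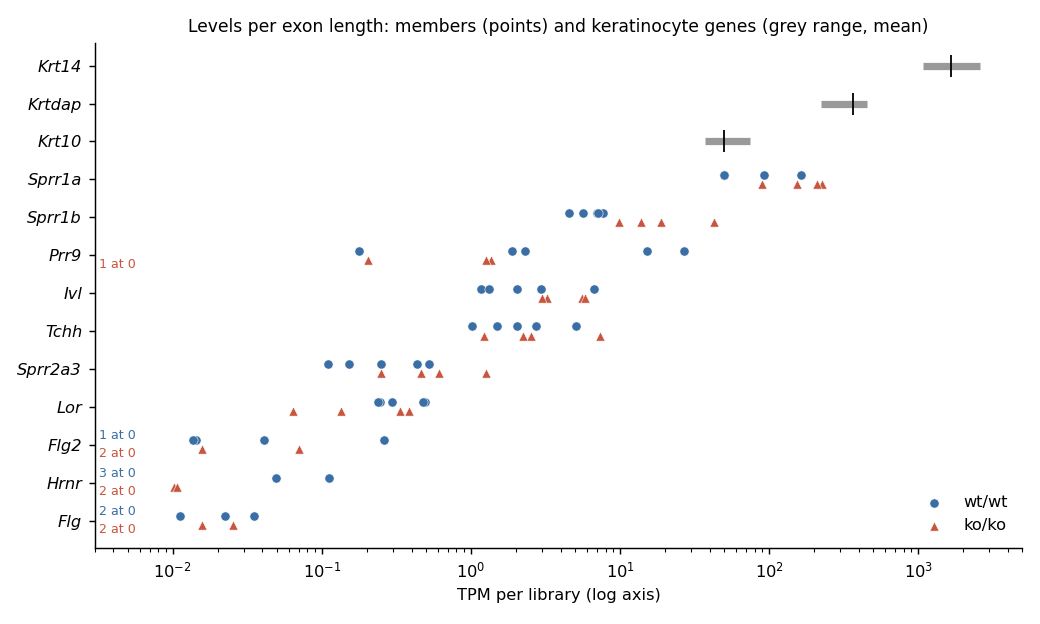
TPM (log axis) of the 10 genes in each library, wt/wt as circles and ko/ko as triangles, with the number of libraries at 0 written at the left and, in grey, the range and mean over 9 libraries of Krt14, Krtdap and Krt10. Sprr1a lies between 49.5 and 226 TPM, and Flg, Hrnr and Flg2 reach at most 0.261 TPM.

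The fused S100 genes of the epidermal surface were almost absent in both genotypes, the targeted gene included. Flg (ENSMUSG00000102439, mm10 chromosome 3, 93273523 to 93293686, plus strand) had 0, 0, 6, 2 and 4 counts in wt/wt, listed from replicate 1 here and throughout, and 2, 0, 0 and 4 in ko/ko. No genotype was thus visible in its own gene, and the labels could not be checked by it. Flg2 (chromosome 3, 93197278 to 93221391, plus strand) had 16, 0, 1, 1 and 3 counts in wt/wt and 0, 0, 4 and 1 in ko/ko. Hrnr, which encodes hornerin (chromosome 3, 93319749 to 93333570, plus strand), had 10, 0, 5, 0 and 0 counts in wt/wt and 0, 1, 0 and 1 in ko/ko. For Flg2 and Hrnr most of the wt/wt counts came from replicate 1, and the groups overlapped for all 3 genes.

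Divided by the wt/wt counts and scaled to depth, the pooled ko/ko counts gave a ratio of 0.684 for Flg (exact 95% interval 0.211 to 1.97), 0.326 for Flg2 (0.0960 to 0.888) and 0.182 for Hrnr (0.0202 to 0.785). These intervals cover counting error only and no spread between samples. Without wt/wt replicate 1 the Flg2 ratio was 1.12 (0.258 to 4.87), from 5 counts in each genotype, and the Hrnr ratio was 0.448 (0.0426 to 2.74), from 5 and 2 counts. Both intervals then include 1, and the direction for Flg2 turned. None of the 3 genes passed the filter on low counts. In the edgeR fit without that filter, over 40310 genes, their adjusted p was 0.867, 0.545 and 0.522.

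How a read is counted matters for these genes, because much of their annotated exon sequence is repeated. In the GENCODE M21 transcripts, 79.2% of the 50-base words of the longest Flg transcript (14497 bases, annotated as processed) occur more than once within it. For the longest Flg transcript annotated as coding (1488 bases) the share was 0%. That transcript is short beside the 18829 exon bases counted for Flg, so its 0% does not describe the whole Flg coding sequence. The share was 69.1% for the Hrnr coding transcript (11187 bases), which is also its longest. For Flg2 it was 65.3% in the longest transcript (20803 bases) and 26.3% in the coding transcript (7011 bases). The sources do not say whether reads with several matches were counted. The processed pseudogene Rplp0-ps1, on the same strand within the Flg span, had 591 to 1458 counts per library, so reads in that stretch are also uncertain.

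Lor (chromosome 3, 92080271 to 92083142, minus strand), the main protein of the mature envelope, had 7, 7, 4, 4 and 5 counts in wt/wt and 4, 1, 5 and 2 in ko/ko. Every library held at least 1 count and none more than 7, and the genotypes overlapped. The pooled ratio was 0.608 (exact 95% interval 0.281 to 1.24), and without the filter edgeR's adjusted p was 0.671. The 21 late cornified envelope genes (Lce), which act at the same depth of the epidermis, were as sparse: the largest count in any library was 10, 4 genes were at 0 throughout, and none passed the filter. Their summed counts were 19, 35, 33, 8 and 1 in wt/wt and 6, 0, 17 and 8 in ko/ko, which overlap.

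Of the 10 genes, 6 passed the filter (Ivl, Tchh, Prr9, Sprr1a, Sprr1b and Sprr2a3), and edgeR's quasi-likelihood test with Benjamini-Hochberg adjustment over 18435 genes called 0 of them higher or lower at an adjusted p under 0.05. The share called over all genes was 0.00542%, all of it higher, and 0% lower. At an unadjusted p under 0.05 it found 2 of the 6 higher (Sprr1a and Sprr1b) and 1 lower (Prr9) in ko/ko, where 15.3% of all genes were under that value, 8.86% higher and 6.42% lower. DESeq2 called 1 of the 6, Sprr1b, as higher, against 3.63% of all genes (2.53% higher and 1.11% lower). limma voom with sample quality weights called 0, against 9.77% (6.6% higher and 3.17% lower). Of the 6 log2 fold changes 5 were positive, as were 47.4% over all genes. Since a gene can pass the filter through the group in which it is high, these counts describe the 6 genes and support nothing about the other 4.

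**Figure D2:**
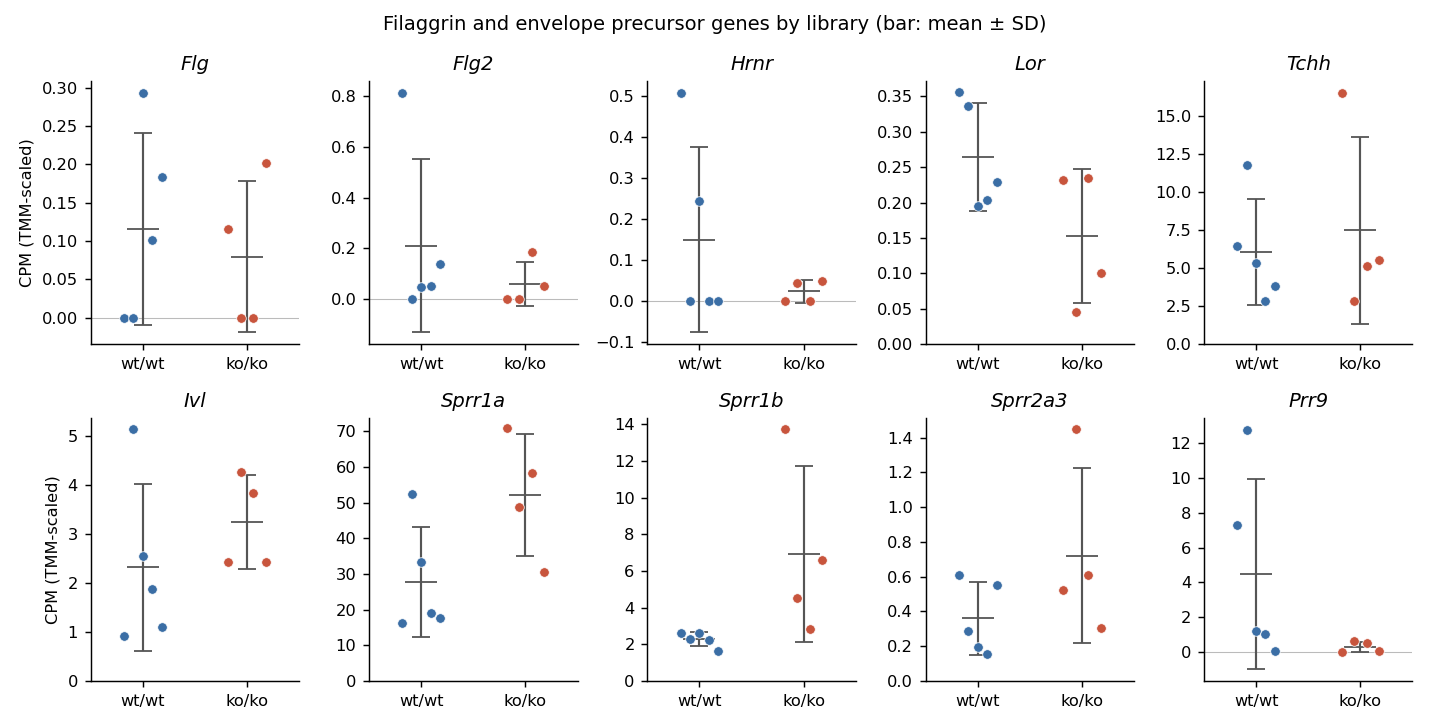
CPM of the 10 genes by library (points, in replicate order within a group), with the mean and SD of each genotype; each panel has its own linear axis. The groups separate for Sprr1b, and overlap for the other 9 genes.

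Sprr1b and Sprr1a encode small proline-rich proteins that bridge other envelope proteins and are known to be made more when epidermis is stressed or wounded. Sprr1b (ENSMUSG00000048455, chromosome 3, 92436809 to 92438789, minus strand) had 2.59, 2.31, 2.64, 2.24 and 1.65 CPM in wt/wt and 13.8, 4.53, 2.81 and 6.57 CPM in ko/ko. All 4 ko/ko libraries lay above all 5 wt/wt libraries, by a wide margin in replicate 1 and by little in replicate 3. Over all genes tested, 3.51% had groups without overlap in that direction and 2.74% in the other. The ko/ko mean was 6.92 ± 4.81 CPM (SD, n = 4), against 2.29 ± 0.394 CPM (SD, n = 5). The log2 fold change was 1.59 (SE 0.41). Its edgeR adjusted p was 0.152, and DESeq2's was 0.0148. The log2 fold change was 1.02 (adjusted p = 0.296) without ko/ko replicate 1 and 0.73 (adjusted p = 0.441) without the 3 libraries rich in Gm10800.

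Sprr1a (ENSMUSG00000050359, chromosome 3, 92483952 to 92485895, minus strand) had 16.3, 52.4, 33.4, 19.2 and 17.6 CPM in wt/wt and 70.9, 48.9, 58.4 and 30.5 CPM in ko/ko. Of the ko/ko libraries, 2 lay above every wt/wt library, and wt/wt replicates 2 and 3 lay within the ko/ko range. The log2 fold change was 0.91 (SE 0.36) and did not pass (edgeR adjusted p = 0.272). It was 0.81 (edgeR adjusted p = 0.449) without the 3 libraries rich in Gm10800. Sprr1b made up 4.21% to 13.7% of the reads of the pair in wt/wt and 4.59% to 17.7% in ko/ko, so the balance between the pair overlapped between genotypes.

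Sprr2a3 (chromosome 3, 92285417 to 92291405, plus strand), of the Sprr2 group of the same family, had 0.610, 0.288, 0.195, 0.153 and 0.551 CPM in wt/wt and 0.520, 1.45, 0.609 and 0.303 CPM in ko/ko. The groups overlapped apart from ko/ko replicate 2, and the log2 fold change was 1.00 (SE 0.60, edgeR adjusted p = 0.450); it was 0.40 without that library and 1.77 (adjusted p = 0.350) without the 3 libraries rich in Gm10800. Of its 50-base words, 61.1% also occur in Sprr2a1, a near-identical neighbour, so the reads of these genes can be split or lost and its level is uncertain. No 50-base word of Sprr1a or Sprr1b occurs in another gene (0% for both).

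Of the 16 small proline-rich genes, 3 were tested, edgeR called 0 higher and 0 lower, and their median log2 fold change was 1.00, against -0.03 over all genes tested. DESeq2 called Sprr1b and voom called none of the 3.

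To set these genes against keratinocyte content, their counts were also divided by those of keratins, a scale chosen after the data had been seen. Per 1000 Krt10 counts, Sprr1b had 48.1 to 64.2 counts in wt/wt and 76.9 to 226 in ko/ko. The groups did not overlap on this scale, as was so for 1.82% of genes in that direction and 0.439% in the other. Per 1000 Krt14 counts, Sprr1b had 1.26 to 3.07 counts in wt/wt and 1.80 to 10.9 in ko/ko, with ko/ko replicate 3 inside the wt/wt range. On that scale 1.27% of genes had ko/ko above wt/wt without overlap and 0.602% below. Sprr1a had 14.3 to 38.9 counts per 1000 Krt14 counts in wt/wt and 27.8 to 56.3 in ko/ko, again with overlap. Per 1000 Krt10 counts it had 404 to 1126 in wt/wt and 637 to 1599 in ko/ko, with 3 ko/ko libraries above every wt/wt library. Krt1, another suprabasal keratin, had 91, 123, 118, 62 and 118 counts in wt/wt and 273, 183, 192 and 163 in ko/ko. Its log2 difference of 1.05 (SE 0.28, edgeR adjusted p = 0.154) was in the direction of Sprr1b. The suprabasal genes did not all go this way: of 6 tested, 4 had positive and 2 negative log2 fold changes (median 0.33). Krt10 had 0.08 (SE 0.20), Krtdap -0.42 (SE 0.20) and Sbsn -0.40 (SE 0.15). Per 1000 Krt1 counts, Sprr1b had 305 to 710 counts in wt/wt and 313 to 872 in ko/ko, so that the separation seen per Krt10 count was lost. Sprr1a had 3254 to 8870 counts per 1000 Krt1 counts in wt/wt and 3699 to 6495 in ko/ko, inside the wt/wt range. Its mean was then lower in ko/ko (5146 against 5504), so the direction for Sprr1a depended on the keratin chosen. Krt1 was higher in every ko/ko library than in any wt/wt library, so dividing by it lowers the ko/ko values of any gene. On this scale 0.146% of genes had ko/ko above wt/wt without overlap and 44.7% below. The values per Krt1 count therefore say little about Sprr1b or Sprr1a themselves.

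Markers of myeloid cells were also uneven between the libraries. The sum of 10 myeloid genes was 17.2 to 86.5 CPM in wt/wt and 205, 238, 110 and 35.4 CPM in ko/ko replicates 1 to 4, with ranges that overlap through replicate 4. All 9 tested genes had positive log2 fold changes (median 2.72), 8 had an unadjusted p under 0.05, and edgeR called 0 (lowest adjusted p = 0.131). Over all genes 8.86% were higher at that unadjusted value. Several of these genes were low in wt/wt and can have passed the filter through ko/ko, so these counts describe the list only. Cd207, the Langerhans cell lectin and the lowest of the 10 by mean CPM, had 0, 0, 4, 2 and 0 counts in wt/wt and 59, 0, 5 and 2 in ko/ko. The highest library was not the same for all 10. Lyz2, the most abundant, had its highest count, 2372, in ko/ko replicate 2, and Ptprc its highest, 124, in ko/ko replicate 1. The part of myeloid cells in the Sprr1b values was not tested. The 4 stress keratins Krt6a, Krt6b, Krt16 and Krt17, which wounded epidermis makes, summed to 320, 973, 188, 163 and 173 CPM in wt/wt and to 269, 214, 293 and 198 CPM in ko/ko. The groups overlapped, and wt/wt replicate 2 stood far above the rest. That library also had the highest sum of the hair follicle markers given below, 219 CPM. The part of hair follicle cells in the stress keratin values was not tested. With all libraries 0 of the 4 had a positive log2 fold change (median -0.60). None passed edgeR's test (lowest adjusted p = 0.446), and 0 had an unadjusted p under 0.05. Without wt/wt replicate 2 the median was -0.16, Krt17, by far the most abundant of them, turned to 0.26 (SE 0.26), and the lowest adjusted p was 0.635.

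**Figure D3:**
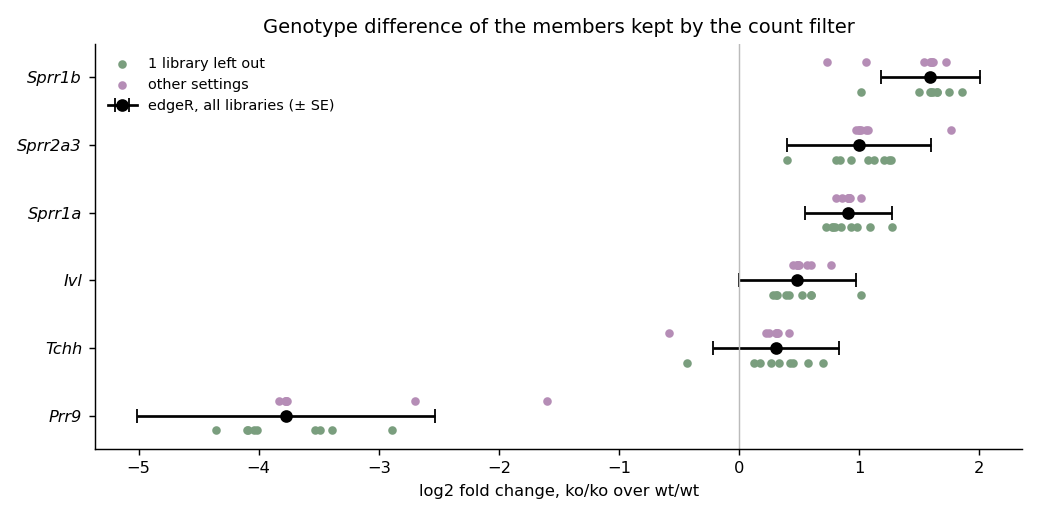
Log2 fold change of ko/ko over wt/wt for the 6 genes that passed the count filter, from edgeR with all libraries (black, with SE), with 1 library left out (green) and under the other settings (violet). The values of Sprr1b, Sprr1a, Sprr2a3 and Ivl stay above 0 in these fits, those of Prr9 stay below 0, and those of Tchh lie on both sides.

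Ivl (ENSMUSG00000049128, chromosome 3, 92570902 to 92573735, minus strand) encodes involucrin, an early scaffold of the envelope. It had 0.915, 5.14, 2.54, 1.88 and 1.10 CPM in wt/wt and 2.43, 4.26, 3.84 and 2.43 CPM in ko/ko. All ko/ko values lay inside the wt/wt range, whose highest point was replicate 2. The log2 fold change was 0.48 (SE 0.49, edgeR adjusted p = 0.665), and 1.01 (adjusted p = 0.264) without wt/wt replicate 2. It was 0.60 (edgeR adjusted p = 0.685) without the 3 libraries rich in Gm10800.

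The genes that act beside involucrin were tested as a list of 11, of which 9 passed the filter. edgeR called 0 higher and 0 lower, with 1 higher and 2 lower at an unadjusted p under 0.05 (8.86% and 6.42% of all genes). The median log2 fold change was -0.24. DESeq2 called none, against 3.63% of all genes. The voom fit called 1, Sbsn, as lower (adjusted p = 0.0379), against 9.77% of all genes, 3.17% of them lower. Krtdap, a secreted protein of suprabasal cells, had a wt/wt mean of 116 ± 16.8 CPM (SD, n = 5) against 86.6 ± 24.9 CPM (SD, n = 4) in ko/ko, a log2 difference of -0.42 (SE 0.20). Sbsn, which encodes suprabasin, had -0.40 (SE 0.15), and Dmkn, which encodes dermokine, had 0.09 (SE 0.19). Ppl, which encodes periplakin, a plakin that underlies the first envelope layer, had 0.41 (SE 0.18). Their edgeR adjusted p ran from 0.249 to 0.847. The transglutaminases Tgm1, Tgm3 and Tgm5, the enzymes that crosslink the envelope, had log2 fold changes of -0.12 (SE 0.51), -0.35 (SE 0.63) and -0.24 (SE 0.52); the last pair turned positive in the voom fit, at 0.28 and 0.27.

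Prr9 (ENSMUSG00000056270, chromosome 3, 92122204 to 92123947, minus strand), which encodes a proline-rich protein of the same gene cluster, was the most uneven of the 6 tested genes. It had 7.27, 12.7, 1.22, 1.07 and 0.0918 CPM in wt/wt and 0, 0.634, 0.516 and 0.101 CPM in ko/ko. wt/wt replicates 1 and 2 carried most of its reads, and wt/wt replicate 5 lay within the ko/ko range. The log2 fold change of -3.77 (SE 1.24) did not pass (edgeR adjusted p = 0.211, DESeq2 0.0847). It was -2.89 without wt/wt replicate 2, -2.70 without the 3 libraries rich in Gm10800 and -1.60 in the weighted voom fit. In ko/ko replicate 1 a count of 0 allows up to 0.192 CPM of the library total. The transcript AC138676.1 overlaps Prr9 on the same strand and had 7 counts in wt/wt and 5 in ko/ko.

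Hair follicle markers were uneven in the same libraries. The sum of 12 inner root sheath and hair shaft genes was 34.0, 219, 33.0, 15.8 and 15.7 CPM in wt/wt and 12.4, 14.6, 28.7 and 9.56 CPM in ko/ko. All 7 of them that passed the filter had negative log2 fold changes (median -2.17), none passed edgeR's test, and 3 had an unadjusted p under 0.05. Over all genes 6.42% were lower at that value. A gene can pass the filter through the group in which it is high. Of the 6545 wt/wt counts of the 12 genes, 4550 came from wt/wt replicate 2, and no fit without it is given for them. Msx2, a regulator and not a keratin, was the most abundant of the 12 by mean CPM. It held 671 of the 4550 counts in wt/wt replicate 2 and 159 of the 215 counts in ko/ko replicate 1. wt/wt replicate 2 was highest for both Prr9 and the hair sum. wt/wt replicate 1, the next highest for Prr9, was also the next highest for the inner root sheath keratins Krt25 (127 counts), Krt27 (86) and Krt71 (113). Replicate 3, with a like hair sum, had 28, 19 and 15 counts of these and 339 of Krt35, a hair shaft keratin. Not all inner root sheath keratins on the list had this order. Krt72 did, with 4 counts in wt/wt replicate 1, but Krt28 had 62 there and 64 in wt/wt replicate 3. Krt73 had 1 there and 19 in wt/wt replicate 4, and Krt26 had 2 there and 5 in ko/ko replicate 1. The part of these cells in the Prr9 values was not tested.

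Tchh (ENSMUSG00000052415, chromosome 3, 93442330 to 93449077, plus strand) was highest in a library that held few reads of most hair keratins. It had 6.46, 11.8, 5.32, 2.85 and 3.81 CPM in wt/wt and 16.5, 2.81, 5.11 and 5.51 CPM in ko/ko. Among the wt/wt libraries, Tchh and the hair sum were both highest in replicate 2, followed by replicates 1 and 3. The part of hair follicle cells in the Tchh values was not tested. The highest Tchh library was ko/ko replicate 1, in which the inner root sheath keratins Krt71 and Krt28 had 0 counts, Krt25 had 4, Krt26 had 5 and Krt27 had 32. For Krt27 that was the highest ko/ko count and for Krt71 and Krt28 the lowest, so these keratins did not move as 1 group in that library. The log2 fold change was 0.31 (SE 0.52, edgeR adjusted p = 0.816), and it turned to -0.43 (adjusted p = 0.779) without ko/ko replicate 1. The antisense transcript Gm37245, which spans Tchh, had 1 count over all libraries.

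**Figure D4:**
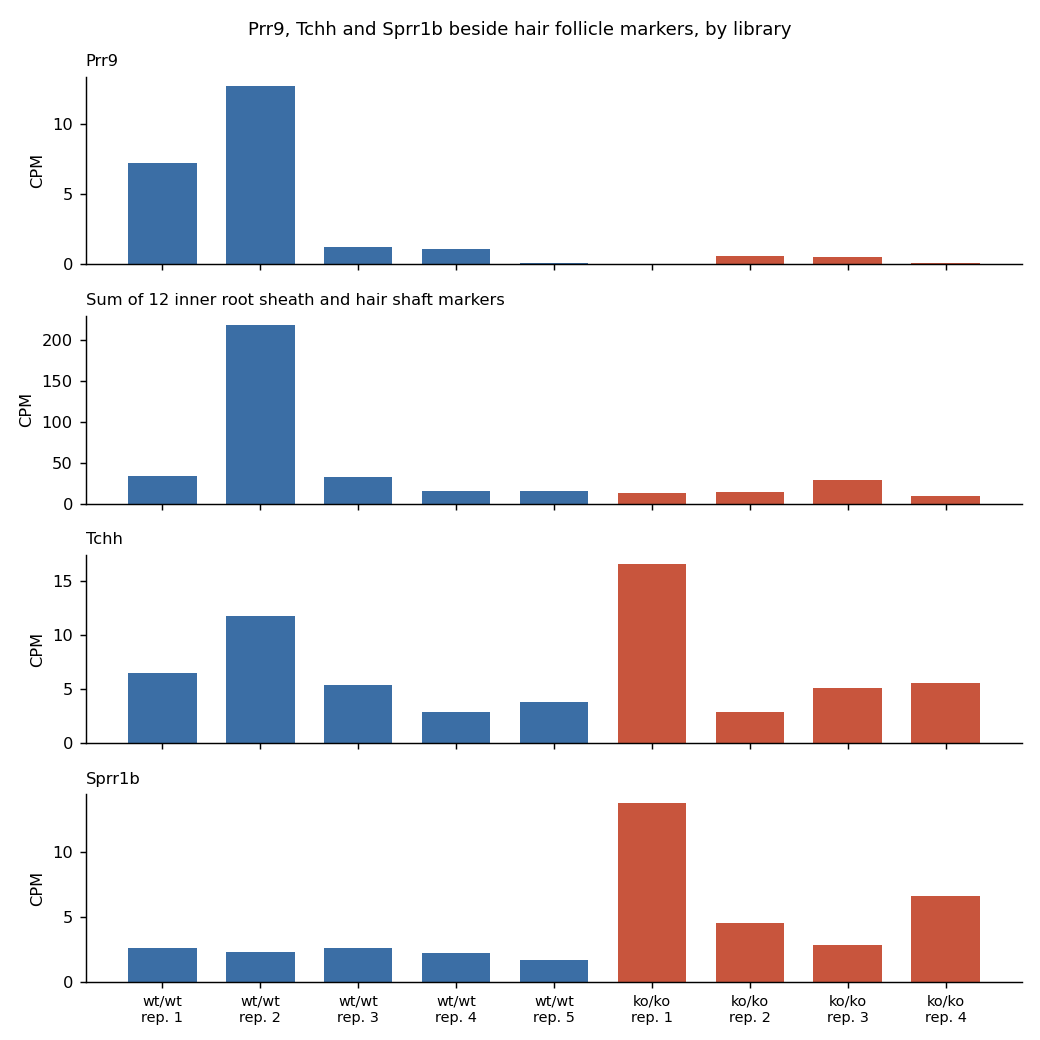
CPM per library of Prr9, of the sum of 12 inner root sheath and hair shaft markers, of Tchh and of Sprr1b (bars, blue wt/wt, red ko/ko, linear axes from 0). Prr9 and the hair sum share their highest library, wt/wt replicate 2, whereas Tchh and Sprr1b are highest in ko/ko replicate 1. Among the wt/wt libraries Tchh is also highest in replicate 2.

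Among the 6 tested genes, Ivl and Sprr1a were the pair most alike across the 9 libraries (Pearson r 0.83, Spearman rho 0.78 of log2 CPM), followed by Sprr1a and Sprr1b (0.58 and 0.60). Prr9 and Sprr1b had the lowest value (-0.55 and -0.42). These are descriptions over libraries that share depth and composition, without a test. By the same measure over all tested genes, the 3 genes most like Sprr1a were Patl1, Adgrl2 and Nectin1 (r 0.97 to 0.98), and those most like Sprr1b were Agap1, Dock10 and Adam12 (r 0.96 to 0.97). Ivl was most like Spopl, Nup188 and Jag1 (r 0.95 to 0.99), Tchh most like Mtcp1, Mthfsd and Setd6 (0.96 to 0.99), Prr9 most like Gm5778, Slc31a1 and Nip7 (0.95 to 0.97), and Sprr2a3 most like Slc35f3, AU018091 and Aldh1a2 (0.88 to 0.90). With the 2 libraries farthest from the member's median left out, r was 0.77 to 0.99 for these 18 pairs. The best of 18434 genes over 9 libraries are high for any gene, so these names show likeness only.

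The promoters of Sprr1a, Sprr1b, Prr9 and the targeted gene Flg are shown because Sprr1b and Sprr1a pointed the same way while Prr9 pointed the other. The 250 bases before the RefSeq start (GRCm38.p6) are printed 5′ to 3′ on the gene's strand. Matches to TGANTCA, a loose form of the AP-1 motif, and to TATAAA are in capitals. N stands for any base, whereas the usual AP-1 motif has G or C there.
Sprr1a, chr3:92485882-92486131, minus strand: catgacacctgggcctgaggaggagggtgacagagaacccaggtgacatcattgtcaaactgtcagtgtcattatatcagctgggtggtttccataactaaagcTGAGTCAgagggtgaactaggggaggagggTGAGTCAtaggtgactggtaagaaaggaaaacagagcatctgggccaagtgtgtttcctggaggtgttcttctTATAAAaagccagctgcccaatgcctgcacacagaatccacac
Sprr1b, chr3:92438780-92439029, minus strand: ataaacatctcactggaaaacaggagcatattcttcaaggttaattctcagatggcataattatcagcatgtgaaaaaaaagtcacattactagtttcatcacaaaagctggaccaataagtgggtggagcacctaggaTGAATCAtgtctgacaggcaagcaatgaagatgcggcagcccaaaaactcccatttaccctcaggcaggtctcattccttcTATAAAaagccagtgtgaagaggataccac
Prr9, chr3:92123948-92124197, minus strand: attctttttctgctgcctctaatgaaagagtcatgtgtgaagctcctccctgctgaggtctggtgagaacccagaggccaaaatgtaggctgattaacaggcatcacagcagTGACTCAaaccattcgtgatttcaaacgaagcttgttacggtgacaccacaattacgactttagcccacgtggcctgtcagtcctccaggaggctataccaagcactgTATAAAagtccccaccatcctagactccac
Flg, chr3:93273296-93273545, plus strand: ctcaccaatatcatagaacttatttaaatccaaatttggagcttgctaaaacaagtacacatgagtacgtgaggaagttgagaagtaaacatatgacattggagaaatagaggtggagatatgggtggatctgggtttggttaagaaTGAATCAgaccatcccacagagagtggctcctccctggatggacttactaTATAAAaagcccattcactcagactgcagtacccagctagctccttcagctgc

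All 4 sequences hold both motifs, and Sprr1a holds TGANTCA at 2 positions, 146 and 116 bases before the start. In Sprr1b the match lies 111, in Prr9 138 and in Flg 103 bases before it. The base at N is A in Sprr1b and Flg, G in Sprr1a and C in Prr9. Searched on both strands, with no overlap between the motifs in these sequences, TGANTCA occurred in the windows of 7 of the 10 genes (all but Hrnr, Tchh and Sprr2a3), against 6.75% of 32851 RefSeq promoter windows of the same length. TATAAA occurred in 7 of the 10, against 12.4%. Of the lists that hold these genes, TGANTCA occurred in 9 of 14 small proline-rich and 5 of 7 fused S100 genes with a window. It also occurred in 3 of 8 scaffold and crosslinking genes and in 0 of 20 Lce genes. The motif stood in genes with positive and with negative log2 fold changes and in genes near 0 counts alike. A match is a run of letters and shows no binding.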

How the data were processed

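The deposited table holds raw counts by gene and sample, made by the authors, with exon lengths. GSNAP, featureCounts 1.6.2 and mm10 are named per the submitters' processing notes, and Ensembl release 87 by the table's name. How strand, multi-mapped and duplicate reads were treated is not given here. Of 49763 rows, 92 spike-in rows were left out. Symbols came from GENCODE M21, where all 10 genes have the table's positions; promoters came from RefSeq.

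edgeR 4.0.16 (R 4.3.3) was fitted to all 9 libraries: filterByExpr (18435 genes kept), TMM, glmQLFit with robust=TRUE, two-sided quasi-likelihood F test, Benjamini-Hochberg over all genes, threshold 0.05. SEs were derived from F. DESeq2 1.42.0, limma 3.58.1, other scalings and filters, robust=FALSE and left-out libraries were alternatives. log2 CPM used a prior count of 2, and TPM used all gene rows. The script was tested on simulated counts. Genes named are the 10, the 3 most alike per tested gene, and up to 4 tested genes per envelope list or 3 per marker list by mean CPM; others were chosen after their values were seen. Krt85, on the hair list, is not used here. The genes, lists and tests were chosen with earlier results of these data known. Replicate numbers follow accession order.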

Additional observations from a re-analysis of the deposited data

Results flagged for a closer look

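In 20 groups of libraries (10 genes in 2 genotypes) tested for a single outlying value, 1 was found; about 1 in 20 arises by chance. In wt/wt replicate 1 Flg2 was at 0.814 CPM (16 counts), while the remaining wt/wt values ran from 0 to 0.138 CPM. The same library held 10 of the 15 wt/wt counts of Hrnr and 28 of the 29 wt/wt counts of Crnn, which encodes cornulin, a fused S100 protein of the same cluster, but 0 counts of Flg.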

How the results depend on the processing

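No paired analysis was possible because the replicate numbers follow accession order and no label pairs the samples. None of the 10 genes was called in any edgeR fit that it entered; DESeq2 called 1, Sprr1b (log2 fold change 1.602, adjusted p = 0.0148), and gave no adjusted p for Sprr2a3. Over all genes edgeR called 1 gene, against 4 with library totals only, 28 without a filter, 630 with DESeq2, 1802 with weighted voom and 7 without the 3 libraries rich in Gm10800; leaving out 1 library gave 0 to 12, the 12 without ko/ko replicate 4. Of the other envelope genes 0 were called, except 1 (Sbsn) by weighted voom. Tchh turned to -0.59 without the 3 libraries rich in Gm10800 and to -0.43 without ko/ko replicate 1 (range with 1 library left out -0.43 to 0.70); the cause was not tested. Sprr1b, Sprr1a, Sprr2a3, Ivl and Prr9 kept their direction in every fit, at log2 fold changes of 0.73 to 1.85, 0.73 to 1.27, 0.40 to 1.77, 0.29 to 1.01 and -4.36 to -1.60; edgeR's and the other tools' adjusted p for them ran from 0.0148 (Sprr1b, DESeq2) to 0.853 (Ivl). Sprr2a3 and Prr9 did not pass the stricter filter of above 1 CPM in 4 libraries. Depth limits Flg, Flg2, Hrnr and Lor: 3 counts, the limit that a count of 0 allows, are 0.129 to 0.192 CPM. The keratin scales, the pooled ratios without wt/wt replicate 1 and the stress keratins without wt/wt replicate 2 were chosen after seeing the data.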

Other observations

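Several low genes of the same cluster, named after their values were seen, were uneven between genotypes but did not pass the filter. Sprr2h had 0, 4, 4, 0 and 0 counts in wt/wt and 37, 17, 3 and 10 in ko/ko, and Sprr2g had 0, 0, 3, 3 and 0 in wt/wt and 20, 14, 3 and 2 in ko/ko. Without the filter, edgeR gave log2 fold changes of 3.34 (SE 1.03, adjusted p = 0.242) and 2.90 (SE 1.11, adjusted p = 0.325). Sprr2d had 24 of its 25 ko/ko counts in replicate 1. Kprp, a proline-rich keratinocyte protein, had 0, 28, 15, 0 and 1 counts in wt/wt and 0, 0, 0 and 1 in ko/ko (log2 fold change -4.56, SE 1.58, adjusted p = 0.287 without the filter).

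Cdsn, which encodes corneodesmosin, the protein that rivets cornified cells together, had a wt/wt mean of 1.98 ± 1.03 CPM (SD, n = 5) against 0.669 ± 0.527 CPM (SD, n = 4) in ko/ko. The log2 difference was -1.55 (SE 0.66), with an edgeR adjusted p of 0.295. Krt77, a suprabasal keratin, had 142 and 72 counts in ko/ko replicates 2 and 3 but 5 to 30 in the other 7 libraries.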
